A study of Homo sapiens with 12 samples.

Results

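The EGFR family comprises the 4 receptor genes EGFR, ERBB2 (HER2), ERBB3 (HER3) and ERBB4 (HER4), and its members were taken as all entries of the sgRNA count table whose gene name was one of these symbols. They made up 4 of 20915 gene names and 24 of 121411 gene-targeting sgRNA entries, with 6 sgRNAs per gene. In a pooled CRISPR-Cas9 knockout screen with the GeCKO V2 library, every cell carries Cas9 and, in most cells, a single guide RNA (sgRNA), and the guides are counted by sequencing the integrated DNA. The screen was run in N87, a gastric cancer line, and OE19, which the labels also call gastric and which was established from an adenocarcinoma of the gastro-oesophageal junction. Both lines carry amplified HER2, and the question was which knockouts let cells survive lapatinib.

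There were 6 groups of 2 libraries, 12 in all. N87 lapatinib cells received 0.5 μM lapatinib for 14 days, N87 vehicle cells an equal volume of DMSO for 14 days, and N87 baseline cells were collected before either treatment. OE19 lapatinib cells received 1 μM lapatinib for 14 days, OE19 vehicle cells DMSO for 14 days, and OE19 baseline cells were again collected beforehand. All 6 groups had been infected with lentivirus carrying this library at a multiplicity of infection of 0.3. They were selected with puromycin for 7 days, at 0.75 μg/mL for N87 and 1.5 μg/mL for OE19. Whether both lines received the same batch of virus is not stated. The 2 replicates of a line were separate infections. Dose, puromycin and line differed together, so that a difference between the lines cannot be told apart from a difference in dose.

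EGFR family receptors sit in the cell membrane, bind growth factors of the EGF and neuregulin families outside the cell, pair with each other and phosphorylate their own tails, where adaptor proteins dock and pass the signal to the MAPK and PI3K pathways. ERBB2 has no known ligand and works as the preferred partner of the other members. ERBB3 binds neuregulins but has little kinase activity, and its tail is a strong docking site for PI3K. EGFR binds EGF, TGF-alpha and amphiregulin, and ERBB4 binds neuregulins and some EGF-like ligands. Lapatinib blocks the kinase sites of EGFR and ERBB2. In a growing pool, a guide whose target the cells need becomes rarer relative to the other guides.

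The genes lie on different chromosomes. In GRCh37 with the GENCODE annotation, EGFR occupies chr7:55086710-55279321 on the plus strand, ERBB2 chr17:37844167-37886679 on the plus strand, ERBB3 chr12:56470583-56497289 on the plus strand and ERBB4 chr2:212240442-213403565 on the minus strand. sgRNAs 1 to 3 of each gene came from library A and sgRNAs 4 to 6 from library B of the GeCKO collection, numbered in the order of their identifiers. The exon that each sgRNA cuts was not analysed here.

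The libraries held 13105805 to 33743599 counts, with the 2 OE19 lapatinib libraries the smallest, at 13105805 and 16378926. Replicates correlated across sgRNAs at r of 0.884 to 0.972 on the log2 scale, lowest between the OE19 lapatinib libraries. The 2000 control entries, which target no gene, were treated like any other sgRNA. Under lapatinib against vehicle in N87, 52.3% of the tested control guides passed an adjusted p of 0.05, against 2.21% in OE19 and 0% in vehicle against baseline of either line. Of the gene-targeting sgRNAs in N87, 61.2% passed in that comparison, so that a call on a single sgRNA there was common with or without a target. Tests across 2 against 2 libraries came from models fitted over all sgRNAs, because an exact permutation test of a single value cannot go below p = 0.333 at this size.

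Counts were set on one scale by median-of-ratios factors, and the level of a gene in a library was the median normalized count of its 6 sgRNAs. The median gene of all genes stood at 146 to 159 on this scale in every library. ERBB2 was at 128 and 118 in OE19 lapatinib, 47.9 and 61.9 in OE19 vehicle and 109 and 115 in OE19 baseline. In N87, ERBB2 was at 45.2 and 40.8 with lapatinib, 47.1 and 27.9 with vehicle and 66.5 and 50.9 at baseline. The order from high to low was therefore OE19 lapatinib, OE19 baseline, N87 baseline, OE19 vehicle, N87 lapatinib and N87 vehicle. The neighbours N87 baseline and OE19 vehicle overlapped in their replicates, as did N87 lapatinib and N87 vehicle, and the other neighbours did not.

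A guide's count also depends on its share of the plasmid pool, which was not analysed here, so levels of different genes are not set against each other.

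EGFR was at 259 and 201 in N87 lapatinib, 159 and 132 in N87 vehicle and 168 and 171 in N87 baseline. In OE19, EGFR was at 249 and 220 with lapatinib, 181 and 196 with vehicle and 186 and 196 at baseline. Its lapatinib levels were the highest in both lines, with no overlap with vehicle. With lapatinib, gene levels were higher than with vehicle without overlap for 44.6% of all genes in N87 and for 26% in OE19. Over all 6 groups the order for EGFR was OE19 lapatinib, N87 lapatinib, OE19 baseline, OE19 vehicle, N87 baseline and N87 vehicle, and the first pair and the pair OE19 baseline and OE19 vehicle overlapped. ERBB3 ranged widely with lapatinib in OE19, at 168 and 97.0, against 145 and 162 with vehicle and 184 and 201 at baseline. In N87, ERBB3 was at 207 and 168 with lapatinib, 125 and 98.9 with vehicle and 145 and 125 at baseline. Its order was OE19 baseline, N87 lapatinib, OE19 vehicle, N87 baseline, OE19 lapatinib and N87 vehicle, of which only N87 lapatinib and OE19 vehicle, and OE19 vehicle and N87 baseline, were neighbours without overlap. ERBB4 was lowest with lapatinib in both lines. Its levels were 61.2 and 86.5 in N87 lapatinib, 114 and 151 in N87 vehicle and 111 and 112 in N87 baseline. In OE19, ERBB4 was at 90.4 and 90.8 with lapatinib, 92.2 and 111 with vehicle and 108 and 126 at baseline. Levels lower with lapatinib than with vehicle, without overlap, were seen for 35.3% of all genes in N87 and 23.2% in OE19. The first 4 groups in the ERBB4 order, N87 vehicle, OE19 baseline, N87 baseline and OE19 vehicle, overlapped from neighbour to neighbour, and OE19 lapatinib and N87 lapatinib followed without overlap.

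**Figure D1:**
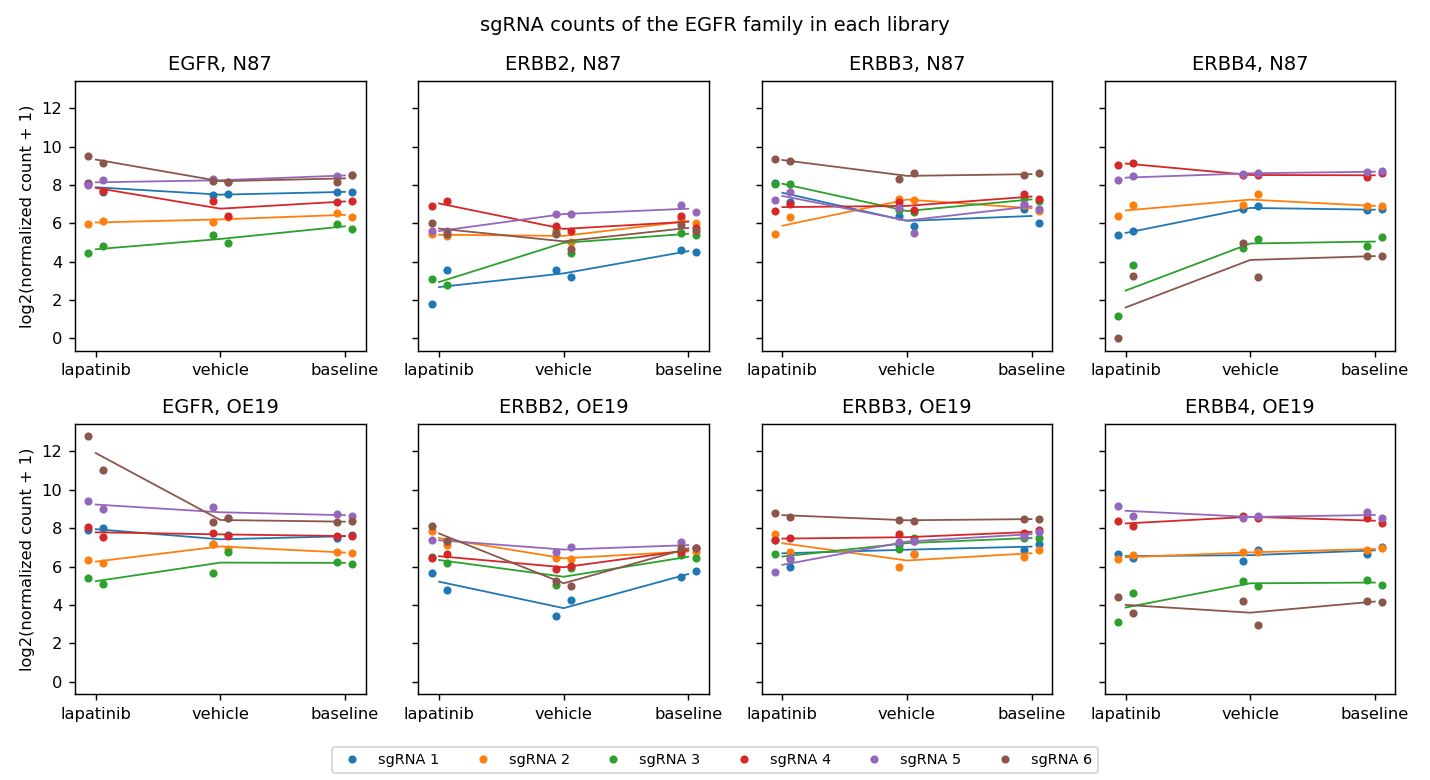
Normalized counts of the 24 sgRNAs, as log2(count + 1), in lapatinib, vehicle and baseline libraries (x axis) of N87 (top) and OE19 (bottom). Each point is a library, each colour an sgRNA of the gene named above the panel, and lines join the means of the 2 libraries; all 6 ERBB2 lines dip at vehicle in OE19, and sgRNA 6 of EGFR stands above the others in OE19 lapatinib.

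Growth without drug was read from vehicle against baseline. In OE19, ERBB2 sgRNAs fell: the median log2 fold change was -0.97 ± 0.69 (SD over 6 sgRNAs), a factor of 1.96, and the gene was depleted at an adjusted p of 0.0131. Of all genes, 1.53% were called depleted in this comparison, and ERBB2 was the only one of the 4 receptors among them. Its median ranked number 98 from the lowest of 20894 genes. All 6 ERBB2 sgRNAs had negative values, as did every tested sgRNA of 3.77% of genes, and all 6 lay below the 5th percentile of the control guides, as for 1.3% of genes.

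The individual ERBB2 sgRNAs differed in size. sgRNA 6 had 37.6 and 30.6 normalized counts in OE19 vehicle, against 123 and 122 in OE19 baseline, a log2 fold change of -1.84 (SE 0.27, adjusted p 0.0155). It was the only receptor sgRNA called lower in OE19 vehicle against baseline, where 0.907% of all gene-targeting sgRNAs were called lower and 0.0116% higher. Without OE19 baseline replicate 2 its adjusted p was 0.0711, and the alternatives ran from 1.32e-09 to 0.0711. sgRNA 1 had 9.59 and 18.2 in OE19 vehicle, against 42.7 and 53.6 in OE19 baseline, a log2 fold change of -1.85 (SE 0.46) whose adjusted p was 0.109. sgRNA 5, with the smallest difference, had 106 and 129 in OE19 vehicle, against 153 and 124 in OE19 baseline (log2 fold change -0.25, SE 0.22), and its replicates overlapped. The other 5 ERBB2 sgRNAs were lower in both vehicle libraries without overlap, as were 22.2% of all gene-targeting sgRNAs.

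Summing the counts of all 6 ERBB2 sgRNAs gave a log2 fold change of -0.84 (SE 0.12, adjusted p 0.00204), in a test that called 5.95% of genes lower. The ERBB2 call was kept in 9 of 10 alternatives and was lost without OE19 vehicle replicate 1, where the median was -0.73. In that replicate, sgRNAs 1 and 3 were rarer than in replicate 2, and sgRNAs 2 and 6 were not. Over all 10 alternatives the median ran from -1.25 to -0.73.

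The other receptors were not called in OE19. ERBB3 had a median of -0.27 ± 0.13 (adjusted p 1) with all 6 sgRNAs negative, between -0.40 and -0.07, and 5 of the 6 below the control guides. Of all gene-targeting sgRNAs, 32.9% lay below the 5th percentile of the control guides here, and every sgRNA was negative in 3.77% of genes. ERBB4 was at -0.15 ± 0.21 with 5 of 6 negative, and EGFR at 0.082 ± 0.16 with 5 of 6 positive. The control guides themselves had a median of 0.19 in this comparison. Set against them alone, through scaling factors taken from the control guides, the median of all genes moved by -0.19 and EGFR turned to -0.10.

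In N87, vehicle against baseline gave negative medians for 3 of the 4 receptors and no call, where 2.34% of genes were called depleted and 0.0574% enriched. ERBB2 was at -0.54 ± 0.34 (unadjusted p 0.0349 in the gene test, adjusted p 0.573), with all 6 sgRNAs negative, between -1.22 and -0.30, and all 6 below the control guides. Its median depended on single libraries, at -1.09 without N87 vehicle replicate 1 and -0.31 without N87 vehicle replicate 2, with no call in either. The corresponding share over all genes was 4.72% for the sign and 1.26% for the position below the controls. ERBB2 sgRNA 1, for example, had 10.8 and 8.34 normalized counts in N87 vehicle, against 23.3 and 21.6 in N87 baseline. sgRNA 2 had 49.4 and 31.7 in N87 vehicle, against 74.1 and 62.8 in N87 baseline, and both sgRNAs were lower without overlap. Over the gene, 4 of 6 sgRNAs were lower without overlap, against 18.1% of all gene-targeting sgRNAs.

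ERBB3 was at -0.38 ± 0.40 in N87 (adjusted p 0.553). Its sgRNA 2 ran against the rest, with 154 and 146 in N87 vehicle and 123 and 97.7 in N87 baseline (log2 fold change 0.44), and the other 5 sgRNAs lay between -0.62 and -0.08. Leaving out N87 baseline replicate 2 gave ERBB3 a median of -0.60 and a call at an adjusted p of 0.0148, and the alternatives ran from 0.0148 to 1. EGFR was at -0.25 ± 0.19 with all 6 sgRNAs negative (adjusted p 1), and ERBB4 at 0.036 ± 0.17. No receptor sgRNA was called in N87, where 0.0405% of all gene-targeting sgRNAs were called lower.

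The difference between the lines was tested directly as the interaction of line and condition. No receptor passed in vehicle against baseline, where 0.0383% of genes were called higher and 0.191% lower in OE19, and no receptor sgRNA was called, where 0.00331% of all gene-targeting sgRNAs were called lower. The difference, OE19 minus N87, had a median of -0.57 ± 0.55 for ERBB2 (p 0.0931, adjusted p 1) and 0.42 ± 0.26 for EGFR (p 0.0519, adjusted p 0.959). Leaving out 1 library moved the ERBB2 median difference to values between -0.81 (without OE19 vehicle replicate 2) and -0.16 (without N87 vehicle replicate 1). For ERBB3 it was 0.17 ± 0.43 and for ERBB4 -0.20 ± 0.31. EGFR ranked number 176 from the highest of 20894 genes and ERBB2 number 125 from the lowest, with neither past the threshold. The ERBB2 call in OE19 alone is thus not shown to differ from the uncalled value in N87.

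**Figure D2:**
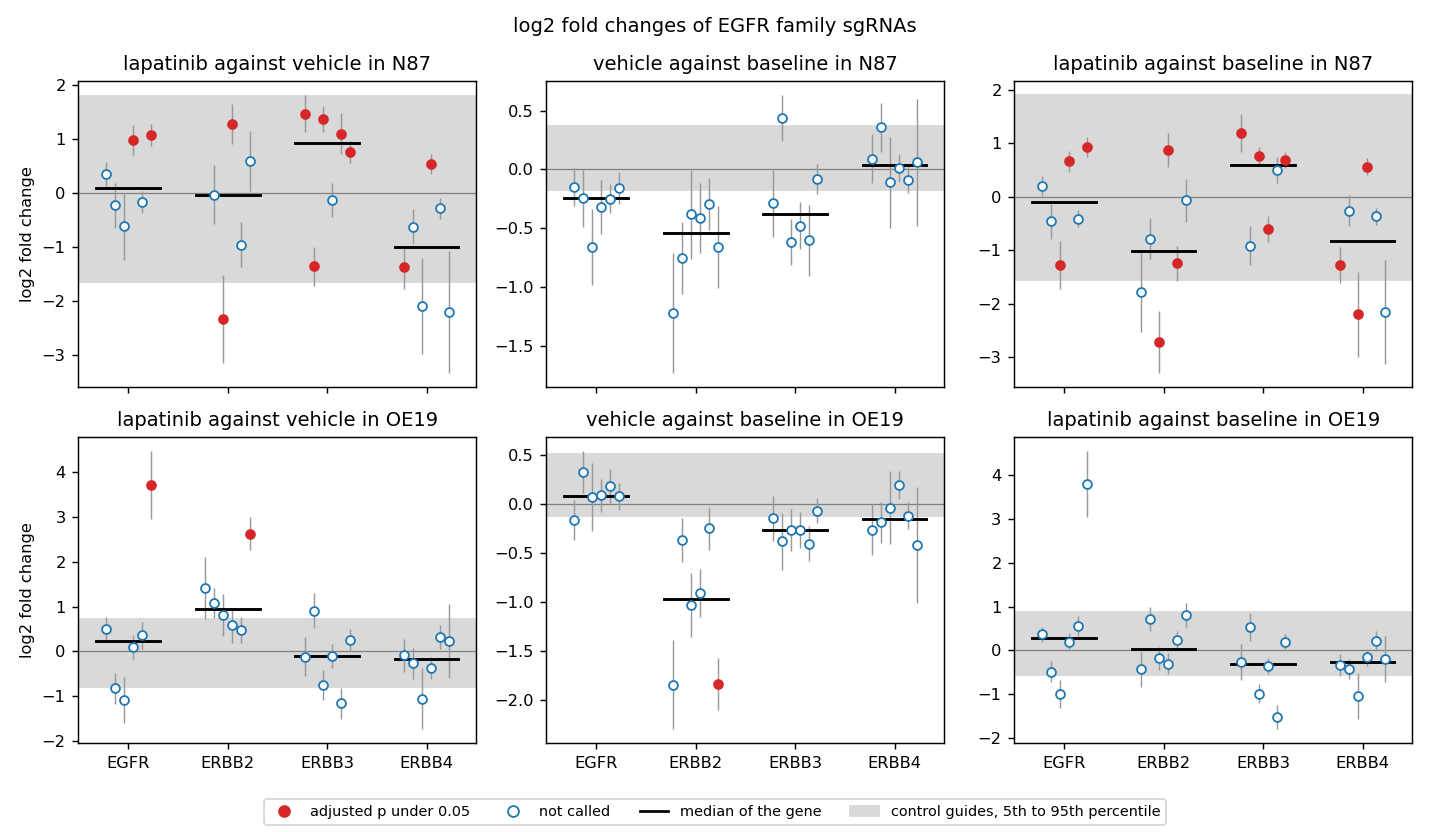
log2 fold changes (y axis, scaled per panel) of each sgRNA of the 4 receptors (x axis) with the SE of the fit as bars, in N87 (top) and OE19 (bottom). Filled points passed an adjusted p of 0.05, black lines are gene medians, and the grey band spans the 5th to 95th percentile of the control guides; all 6 ERBB2 sgRNAs lie below the band in vehicle against baseline of both lines, and the band is widest in the N87 lapatinib comparisons.

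Lapatinib against vehicle in OE19 gave ERBB2 a positive median, 0.95 ± 0.79 (a factor of 1.93), number 103 from the highest of 20890 genes. The gene test did not pass (unadjusted p 0.0309, adjusted p 0.863), and 0.0957% of genes were called enriched. All 6 ERBB2 sgRNAs were positive, as in 3.15% of genes, and all 6 were higher in both lapatinib libraries than in both vehicle libraries, against 23.9% of all gene-targeting sgRNAs. The summed counts gave 1.02 (SE 0.185) with an adjusted p of 0.0522, in a test that called 0.043% of genes higher, and the alternatives ran from 0.0522 to 1.

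sgRNA 6 carried the largest ERBB2 change. It had 279 and 158 normalized counts in OE19 lapatinib, against 37.6 and 30.6 in OE19 vehicle (log2 fold change 2.63, SE 0.38, adjusted p 0.00561), and baseline stood between them, at 123 and 122. The call was lost without OE19 vehicle replicate 1 (2.79, adjusted p 0.11) or replicate 2 (2.50, adjusted p 0.0606), and the alternatives ran from 6.51e-11 to 0.11. sgRNA 2 had 233 and 137 in OE19 lapatinib, against 86.3 and 84.0 in OE19 vehicle (1.08, SE 0.33, adjusted p 0.139). sgRNA 5 had 168 and 161 in OE19 lapatinib, against 106 and 129 in OE19 vehicle (0.47, SE 0.29, adjusted p 0.471). The OE19 vehicle libraries are the denominator here and the numerator in vehicle against baseline, so the 2 ERBB2 values, 0.95 and -0.97, are not independent. Against baseline, OE19 lapatinib left ERBB2 at 0.029 ± 0.53, with 3 sgRNAs positive and 3 negative.

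A single EGFR sgRNA stood out in OE19. sgRNA 6 had 7032 and 2121 normalized counts in OE19 lapatinib, against 322 and 365 in OE19 vehicle, with 315 and 331 at baseline. Its log2 fold change was 3.71 (SE 0.76, adjusted p 0.0251), while its 2 lapatinib libraries differed more from each other than the vehicle libraries did. Without OE19 vehicle replicate 1 or 2 the adjusted p was 0.793 or 0.542, with log2 fold changes of 3.62 and 3.80, and the alternatives ran from 4.38e-77 to 0.793. The other 5 EGFR sgRNAs lay between -1.09 and 0.51, none called, and the gene median was 0.23 ± 1.72 (adjusted p 0.993). EGFR sgRNA 6 and ERBB2 sgRNA 6 were the 2 receptor sgRNAs of 24 called higher, where 2.33% of all gene-targeting sgRNAs and 2.21% of control guides were called. No receptor sgRNA was called lower, where 0.0809% were.

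ERBB3 was at -0.11 ± 0.73 and ERBB4 at -0.18 ± 0.50 in OE19 lapatinib against vehicle, neither past the test. ERBB3 sgRNAs went both ways. sgRNA 2 had 204 and 107 in OE19 lapatinib, against 61.2 and 101 in OE19 vehicle (0.91, SE 0.39), and sgRNA 5 had 51.7 and 86.9, against 152 and 162 in OE19 vehicle (-1.16, SE 0.35, adjusted p 0.133). Across all genes, the median SD over a gene's sgRNAs was 0.50 in this comparison, against 0.28 in vehicle against baseline of the same line.

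In N87, lapatinib against vehicle moved receptor sgRNAs in both directions, and no receptor gene passed in the gene test, which called 0% of genes enriched and 0.0144% depleted. The medians were 0.10 ± 0.69 for EGFR, -0.025 ± 1.41 for ERBB2, 0.94 ± 1.09 for ERBB3 and -0.99 ± 1.08 for ERBB4, each with an adjusted p of 1. The median SD over the sgRNAs of a gene was 1.29 across all genes. Of 23 receptor sgRNAs tested, 8 were called higher and 3 lower, against 31.1% and 30.1% of all gene-targeting sgRNAs. The 5th to 95th percentile of the control guides spanned -1.65 to 1.81. Among the called receptor sgRNAs, only ERBB2 sgRNA 3, at -2.33, lay outside that range. ERBB2 sgRNA 1 was too rare to test, with 2.47 and 10.8 normalized counts in N87 lapatinib and 10.8 and 8.34 in N87 vehicle.

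ERBB3 had the most sgRNAs called higher, 4 of 6. sgRNA 3 had 266 and 268 in N87 lapatinib, against 102 and 95.9 in N87 vehicle (log2 fold change 1.38, SE 0.24, adjusted p 0.00018), and sgRNA 6 had 664 and 598, against 315 and 400 in N87 vehicle (0.77, SE 0.20, adjusted p 0.00445). The sgRNA 6 call was lost with scaling to library totals (0.24, adjusted p 0.227) and without N87 vehicle replicate 1 (0.58, adjusted p 0.162), with alternatives from 9.64e-05 to 0.227. The call on sgRNA 5 was lost with control-guide scaling, library totals or without N87 vehicle replicate 2, at adjusted p of up to 0.247. sgRNA 2 of the same gene was called lower, with 42.1 and 79.3 in N87 lapatinib against 154 and 146 in N87 vehicle (-1.36, SE 0.36, adjusted p 0.00475). All 6 ERBB3 values lay within the range of the control guides, -1.65 to 1.81.

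ERBB2 was split in N87 in the same way. sgRNA 3 was called lower, with 7.42 and 6.01 in N87 lapatinib against 44.8 and 20.9 in N87 vehicle (-2.33, SE 0.81, adjusted p 0.0210). sgRNA 4 was called higher, with 119 and 143 in N87 lapatinib against 56.4 and 46.7 in N87 vehicle (1.29, SE 0.37, adjusted p 0.00737). The sgRNA 3 call was lost without N87 vehicle replicate 2 (-2.79, adjusted p 0.0857), as was that of sgRNA 4 (1.14, adjusted p 0.0763), and their alternatives ran from 0.00853 to 0.0857 and from 0.000526 to 0.105. Leaving out N87 vehicle replicate 1 gave ERBB2 a median of 0.68, of the opposite sign.

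ERBB4 had 5 of 6 sgRNAs negative in N87 lapatinib against vehicle. sgRNA 1 was called lower, with 40.8 and 48.0 in N87 lapatinib against 105 and 117 in N87 vehicle (-1.37, SE 0.40, adjusted p 0.00772). sgRNA 4 was called higher, with 534 and 575 against 367 and 366 in N87 vehicle (0.54, SE 0.19, adjusted p 0.0233). Both values lay within the range of the control guides. The sgRNA 4 call was lost with control-guide scaling (0.27, adjusted p 0.201), with library totals (0.024, adjusted p 0.904) and without N87 vehicle replicate 1 (0.53, adjusted p 0.193) or 2 (0.53, adjusted p 0.195), with alternatives from 0.00512 to 0.904. The sgRNA 1 call was lost without N87 vehicle replicate 1 (-1.46, adjusted p 0.0672) or 2 (-1.31, adjusted p 0.122), with alternatives from 0.000513 to 0.122. Its sgRNAs 3 and 6 were rare in every library, and sgRNA 6 had 0 reads in N87 lapatinib replicate 1, which allows a normalized count of up to 3.71 (3 reads, counting error only). For EGFR, sgRNAs 4 and 6 were called higher and none lower, and sgRNA 4 lost its call with control-guide scaling, library totals or without N87 vehicle replicate 2, at adjusted p of up to 0.204. Summed counts called ERBB3 higher (0.28, adjusted p 0.0238) and ERBB4 lower (-0.48, adjusted p 0.00315), in a test that called 32.3% of all genes higher and 32.2% lower, and the adjusted p of both was 1 in the gene test.

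Lapatinib against baseline showed the same spread in N87. There 7 of 24 receptor sgRNAs were called higher and 6 lower, against 33.5% and 33.9% of all gene-targeting sgRNAs, and no receptor passed in the gene test, which called 0% of genes enriched and 0.134% depleted. Among the called sgRNAs, only ERBB2 sgRNA 3 (-2.72) and ERBB4 sgRNA 3 (-2.20) lay outside the range of the control guides, -1.55 to 1.90. Of these 13 sgRNA calls, 11 were lost without N87 baseline replicate 1 and 11 without N87 baseline replicate 2. ERBB2 had a median of -1.01 ± 1.27 with 5 of 6 sgRNAs negative, ERBB4 -0.82 ± 1.11 with 5 of 6 negative, EGFR -0.10 ± 0.81 and ERBB3 0.59 ± 0.83. In OE19 the medians were 0.28 ± 1.69 for EGFR, 0.029 ± 0.53 for ERBB2, -0.31 ± 0.76 for ERBB3 (unadjusted p 0.000717, adjusted p 0.161) and -0.26 ± 0.42 for ERBB4. No receptor gene was called, with 0.124% of genes called enriched and 0.129% depleted, and no receptor sgRNA was called, with 0.000831% of gene-targeting sgRNAs called higher. The lowest ERBB3 sgRNAs there were 3 and 5, with log2 fold changes of -0.99 and -1.53. sgRNA 5 had 51.7 and 86.9 in OE19 lapatinib, against 190 and 223 in OE19 baseline.

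Whether lapatinib against vehicle acted unequally on receptor guides in OE19 and N87 was tested by the same interaction. No receptor gene passed in the gene test, with adjusted p of 1 for all 4, where 0.0191% of genes were called higher and 0% lower. Summed counts called ERBB2 (1.33, adjusted p 0.00626) and EGFR (1.84, adjusted p 0.0122, opposite in sign to its median) higher in OE19, in a test that called 24.9% of all genes higher and 19.8% lower, and the alternatives ran from 0.00626 to 1 for ERBB2 and from 0.0122 to 1 for EGFR. The EGFR sum was dominated by sgRNA 6, at 7032 and 2121 normalized counts in OE19 lapatinib, where sgRNA 5 came next at 695 and 518. On its own sgRNA 6 differed by 2.65, and the other 5 EGFR sgRNAs lay between -0.86 and 0.55, none called. The median difference, OE19 minus N87, was 1.73 ± 1.28 for ERBB2 with 5 of 6 sgRNAs positive, -0.14 ± 1.29 for EGFR, -1.03 ± 1.71 for ERBB3 and 0.83 ± 1.11 for ERBB4. Of the 24 receptor sgRNAs, 5 were called higher and 3 lower, where 20.9% and 20.4% of all gene-targeting sgRNAs and 36.2% of control guides in either direction were called. ERBB2 held 3 of the 5 called higher and none called lower, and ERBB3 held 1 higher and 2 lower. The calls on ERBB2 were each lost without at least 1 of the libraries.

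The pools already differed between the lines at baseline, after puromycin and before treatment. ERBB2 sgRNAs were more abundant in OE19 baseline than in N87 baseline: the median log2 fold change was 0.89 ± 0.32, a factor of 1.86, at an adjusted p of 4.71e-06, and ERBB2 ranked number 26 from the highest of 20895 genes. All 6 sgRNAs were positive and all 6 lay above the control guides, as in 0.337% of genes, while every sgRNA was positive in 3.25% of genes. The libraries of the lines did not overlap for any of the 6, against 19.5% of all gene-targeting sgRNAs higher without overlap. sgRNA 6 had 123 and 122 normalized counts in OE19 baseline, against 58.8 and 48.2 in N87 baseline (1.18, SE 0.20, adjusted p 4.9e-05). sgRNA 3 had 94.9 and 85.4 in OE19 baseline, against 44.7 and 41.2 in N87 baseline (1.06, SE 0.22, adjusted p 0.00254). sgRNA 4 was the third ERBB2 sgRNA called, at 0.73, and sgRNA 5 had the smallest value, 0.34. The sgRNA 4 call was lost under DESeq2 (adjusted p 0.775), without N87 baseline replicate 2 (0.46, adjusted p 0.587) and without OE19 baseline replicate 1 (0.83, adjusted p 0.0951) or 2 (0.62, adjusted p 0.542), with alternatives from 0.000595 to 0.775. The sgRNA 3 call was lost under DESeq2 (adjusted p 0.106) and without OE19 baseline replicate 1 (0.98, adjusted p 0.114), with alternatives from 0.00212 to 0.114. As a gene, the ERBB2 call held under all 9 alternatives, with medians of 0.77 to 1.11.

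ERBB3 was also called higher in OE19 baseline (0.32 ± 0.37, adjusted p 0.0241), so that 2 of the 4 receptors were called where 1.78% of genes were called enriched and 0.00479% depleted. Its sgRNA 5 had 190 and 223 in OE19 baseline, against 128 and 107 in N87 baseline (0.80, SE 0.15, adjusted p 0.000356), a call lost without OE19 baseline replicate 2 (0.68, adjusted p 0.102; alternatives from 3.59e-05 to 0.102), and sgRNAs 2 and 6 were at -0.10. The receptor sgRNAs called were 4 of 24, all higher, where 0.937% of all gene-targeting sgRNAs were called higher and 0.043% lower. The ERBB3 call rested on single libraries, with a median of 0.22 (adjusted p 0.804) without N87 baseline replicate 2 and 0.27 (adjusted p 0.985) without OE19 baseline replicate 2, and the alternatives ran from 0.0170 to 0.985. EGFR was at 0.23 ± 0.20 (adjusted p 1) and ERBB4 at 0.0013 ± 0.11.

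The ERBB2 values were read beside those of 8 genes around it on chromosome 17, which lie within 51.3 kb of it and of which PGAP3 and MIEN1 overlap the ERBB2 gene body on the opposite strand. Cas9 cutting of amplified DNA is known to slow cells whichever gene is cut, and how far the amplified region reaches in either line was not analysed here. All 8 neighbours were called higher in OE19 baseline than in N87 baseline, where 1.78% of all genes were called enriched. They ran from 0.26 ± 0.28 for IKZF3, a lymphoid transcription factor, to 1.51 ± 0.28 for TCAP, a muscle protein. The list median was 1.06, against -0.01 over all genes. In vehicle against baseline, the 2 lines differed along the region. In N87 all 8 neighbours had negative medians, and TCAP (-1.01, adjusted p 0.000798), PPP1R1B (-0.85, adjusted p 0.0286) and PNMT, an enzyme of adrenaline synthesis (-0.44, adjusted p 0.0423), were called depleted. The share called depleted over all genes was 2.34% in N87.

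In OE19, MIEN1 (-1.37, adjusted p 0.00252) was called depleted beside ERBB2, PGAP3 (-0.96) and GRB7, an adaptor that binds ERBB2 (-0.59), were not, STARD3 and IKZF3 were at -0.048 and -0.017, and PPP1R1B, TCAP and PNMT had positive medians of 0.21, 0.08 and 0.19. The share called depleted over all genes was 1.53% in OE19. The interaction test called PPP1R1B (1.04), TCAP (1.04) and PNMT (0.68) higher in OE19 than in N87, with adjusted p of 6.48e-05, 6.48e-05 and 0.00900. It called 0.0383% of all genes higher. MIEN1 had the highest of the 8 neighbour medians in OE19 lapatinib against vehicle, at 1.52 ± 0.90 (adjusted p 0.909), against 0.95 for ERBB2. Across the 8, medians ran from -0.23 to 1.52, 7 positive and 1 negative, with none called. Their list median was 0.25, against -0.019 over all genes. As for ERBB2, the MIEN1 values of 1.52 and -1.37 share the OE19 vehicle libraries and are not independent. In N87 lapatinib against vehicle, 7 of the 8 neighbours had negative medians, with a list median of -1.29 against -0.093 over all genes and none called. For lapatinib against vehicle, the difference OE19 minus N87 was positive in median for all 8 neighbours, from 0.56 to 3.35, with none called. The list median of this difference was 1.51 against 0.15 over all genes, beside 1.73 for ERBB2. In N87 lapatinib against baseline, all 8 neighbours had negative medians and none was called. The list median was -2.17 there, against -0.097 over all genes and -1.01 for ERBB2. Some neighbours had few counts in N87 lapatinib, such as MIEN1 (levels of 3.09 and 4.80) and PGAP3 (3.09 and 9.01), unlike IKZF3 (128 and 132). In N87 lapatinib against vehicle, the count filter left 4 sgRNAs for MIEN1 and STARD3 and 5 for GRB7, PGAP3, PPP1R1B and TCAP. How much of the ERBB2 value belongs to the receptor and how much to the region was not tested.

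**Figure D3:**
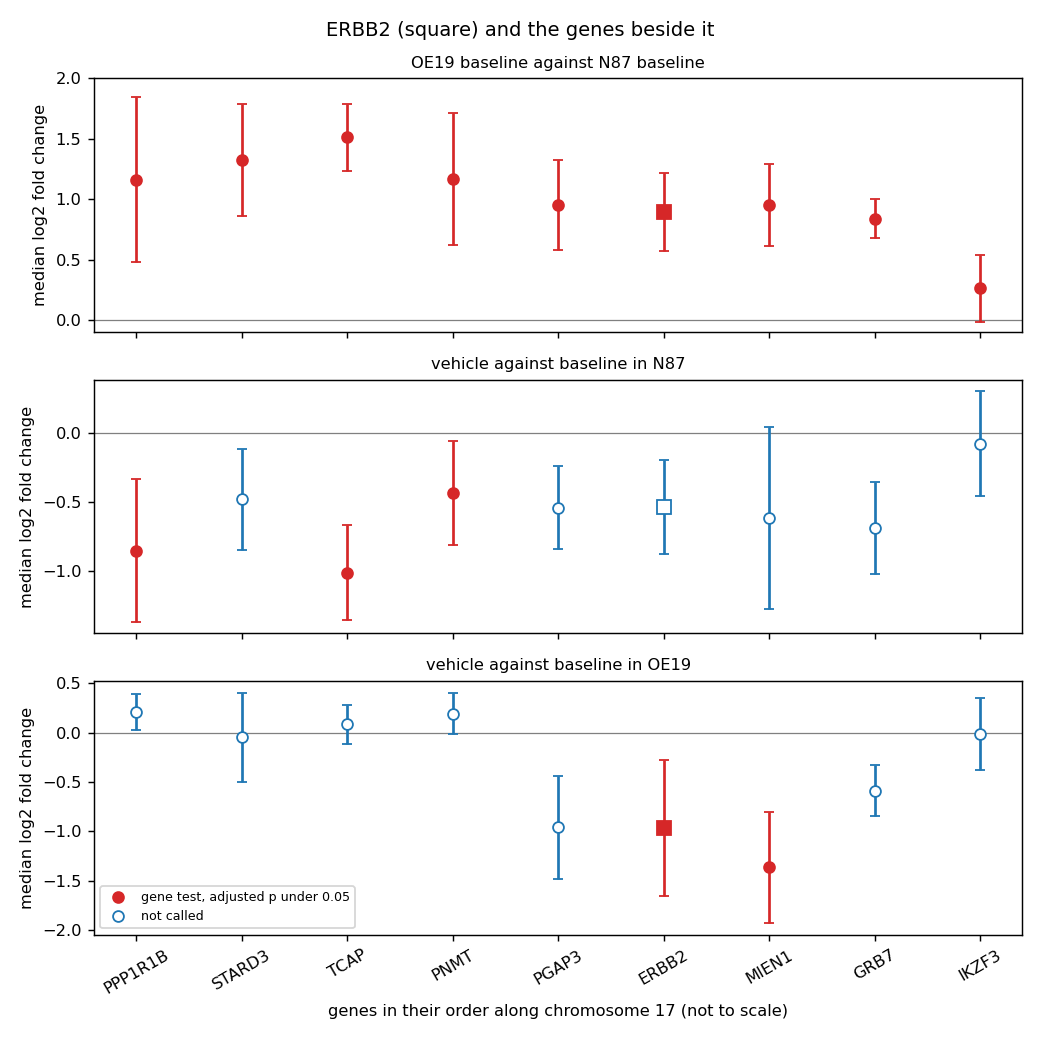
Gene medians of the log2 fold change with the SD over sgRNAs (y axis) for ERBB2 (square) and 8 neighbouring genes in their order on chromosome 17 (x axis, not to scale), in OE19 baseline against N87 baseline and in vehicle against baseline of each line. Filled symbols passed the gene test; in OE19 vehicle the values well below 0 are those of PGAP3, ERBB2, MIEN1 and GRB7, from -0.59 to -1.37, and in N87 vehicle all 9 genes are negative.

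Genes that act with the receptors were described from lists. None of 11 ligand genes, which encode the growth factors EGF, TGFA, AREG, EREG, EPGN, BTC, HBEGF and NRG1 to NRG4, was called in any of the 9 comparisons, and neither were ADAM10 and ADAM17, the membrane proteases that release many of these ligands. In vehicle against baseline, ligand medians lay between -0.04 and 0.18 in OE19, lowest for NRG4 and highest for AREG, and between -0.06 and 0.24 in N87, lowest for TGFA and highest for NRG1. With lapatinib against vehicle they spread from -0.23 (AREG) to 0.78 (EPGN) in OE19 and from -0.84 (AREG) to 1.34 (EREG) in N87. The lowest receptor median in vehicle against baseline was that of ERBB2, at -0.97 in OE19 and -0.54 in N87. The highest were 0.082 for EGFR in OE19 and 0.036 for ERBB4 in N87. The list median of the ERBB2 neighbours was -0.032 in OE19 and -0.58 in N87.

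Among 8 adaptors and effectors that act at the receptors, PTPN11 was called depleted in vehicle against baseline of both lines. PTPN11 encodes SHP2, a phosphatase that passes receptor signals to Ras, and its median was -0.94 ± 0.46 in OE19 (adjusted p 0.0146) and -0.98 ± 0.24 in N87 (adjusted p 0.0124). SHC1, an adaptor that recruits GRB2, was called depleted in N87 (-0.79 ± 0.24, adjusted p 0.000771) and was at -0.40 in OE19. The list median was -0.26 in OE19, against 0.01 over all genes, and -0.38 in N87, against 0.02 over all genes. Counts were 1 of 8 called depleted in OE19, against 1.53% of all genes, and 2 of 8 in N87, against 2.34% of all genes, and ERBB2IP, which binds the ERBB2 tail, had the highest median in both lines, at 0.25 in OE19 and 0.04 in N87. No adaptor was called with lapatinib against vehicle in either line, where medians spread from -0.55 (ERBB2IP) to 0.42 (SHC1) in OE19 and from -2.51 (PTPN11) to 1.66 (PLCG1) in N87. At baseline, GAB1, a docking protein for PI3K and SHP2 (0.49, adjusted p 0.000846), and GRB7 (0.84, adjusted p 8.59e-07) were called higher in OE19 than in N87, the second of them a neighbour of ERBB2. The share called higher over all genes was 1.78% there.

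**Figure D4:**
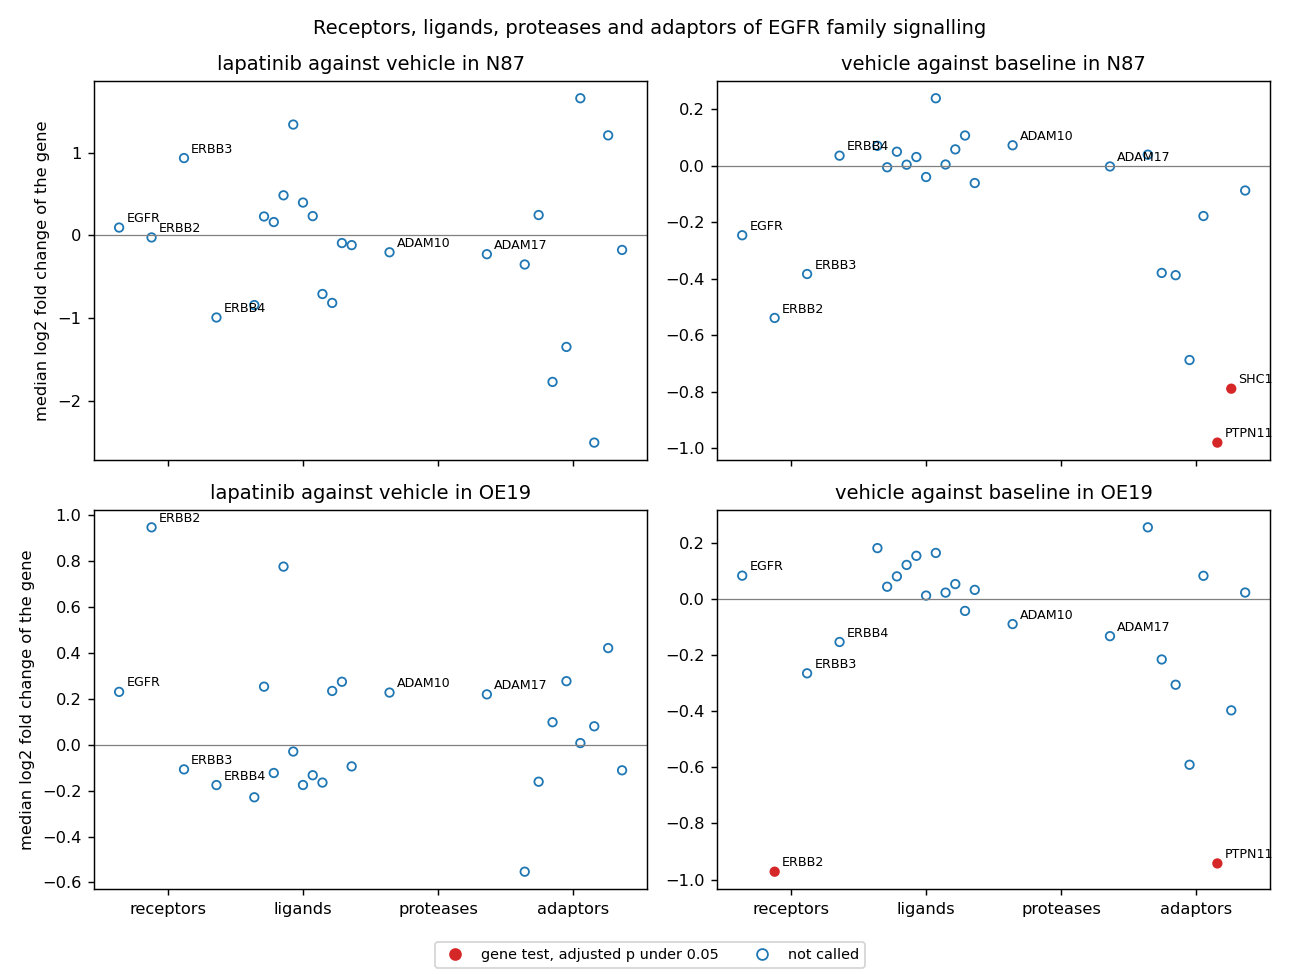
Gene medians of the log2 fold change (y axis, scaled per panel) for the 4 receptors, 11 ligands, 2 proteases and 8 adaptors (x axis), with lapatinib against vehicle on the left and vehicle against baseline on the right, N87 above OE19. Filled points passed the gene test: SHC1 and PTPN11 in N87 and ERBB2 and PTPN11 in OE19, all in vehicle against baseline.

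The genes whose level across the 12 libraries was most like that of a receptor were picked by Pearson's r of log2 levels among 20782 genes, as a description. For ERBB2 they were HAUS5, a subunit of a spindle complex (r 0.961), FOXD4L6 (0.943) and TBC1D3B (0.942), and the neighbour MIEN1 came at 0.750. For EGFR they were CNOT2 (0.957), USP17L19 (0.950) and NFRKB (0.946), for ERBB3 MTBP (0.871), PPP1R10 (0.852) and DHX16 (0.845), and for ERBB4 EI24 (0.969), CENPF (0.959) and N4BP2L2 (0.952). Between receptors, r was 0.538 for EGFR and ERBB2, 0.572 for EGFR and ERBB3 and -0.79 for EGFR and ERBB4. It was 0.30 for ERBB2 and ERBB3, 0.0017 for ERBB2 and ERBB4 and -0.39 for ERBB3 and ERBB4. Among the 20782 genes, ERBB2 was only number 2485 and ERBB3 number 2003 in likeness to EGFR. The 12 points are 6 pairs of replicates that share line and drug, and library depth differs with the drug.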

How the data were processed

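For each of 12 libraries, the authors deposited raw counts, the number of reads of every sgRNA in genomic DNA. They had trimmed the reads, run FastQC (0.11.5), mapped reads to the guide library allowing fewer than 2 mismatches by Bowtie (the submitters' notes name Bowtie2 2.3.2), merged the counts and scored genes with MAGeCK (0.5.6) and edgeR. MAGeCK was not run here.

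Each comparison was fitted on the whole table by the quasi-likelihood test of edgeR 4.0.16 (R 4.3.3, limma 3.58.1) with TMM factors and without a replicate block, on its 4 libraries (at least 40 counts over them) or, for differences between lines, 8 libraries (at least 80). One-sided p-values were ranked and combined per gene by robust rank aggregation (ranks under 0.05, at least 2 sgRNAs). Adjusted p-values are Benjamini-Hochberg over all sgRNAs or all genes, with a threshold of 0.05. Log2 fold changes of a gene are medians over sgRNAs with their SD, and an SE belongs to the fit. Counts summed per gene were tested as an alternative. The steps were run on simulated counts with known changes for N87 lapatinib against vehicle and OE19 vehicle against baseline only. Their outcome is not reported here. Control guides were given no change, and a single spread, estimated from the reference libraries, was used for all simulated libraries. The wide spread of control guides under N87 lapatinib was therefore not covered. Alternatives were the replicate block, factors from control guides or totals, DESeq2 1.42.0, no filter, and leaving out each library; for levels, other scalings, the mean over sgRNAs and other pseudocounts than 1. Python 3.11.15 (numpy 2.4.6, pandas 2.3.3, scipy 1.17.1, matplotlib 3.10.9) was used for tables and plots. Named genes are the 4 receptors, list members that were called or had the 2 lowest or highest medians, and the 3 genes with the highest r. The members and lists were chosen with earlier results of these data known. Reads carry no molecular identifiers.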

Additional observations from a re-analysis of the deposited data

Results flagged for a closer look

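Lapatinib against vehicle differed between the lines, by the interaction test on single sgRNAs, for 8 of the 24 receptor sgRNAs. The same test called 41.3% of all gene-targeting sgRNAs and 36.2% of the control guides, so such calls were common. The differences are OE19 minus N87 on the log2 scale. For ERBB2 they were 3.17 for sgRNA 3 (adjusted p 0.0110), 1.45 for sgRNA 5 (adjusted p 0.0220) and 2.07 for sgRNA 6 (adjusted p 0.0187). For ERBB3 they were 2.29 for sgRNA 2 (adjusted p 0.00698), -2.10 for sgRNA 3 (adjusted p 0.00156) and -2.24 for sgRNA 5 (adjusted p 0.00794). EGFR sgRNA 6 differed by 2.65 (adjusted p 0.00408) and ERBB4 sgRNA 4 by -0.89 (adjusted p 0.0251). Leaving out 1 library ended several of these calls. ERBB2 sgRNA 3 was at an adjusted p of 0.0733 without N87 vehicle replicate 1 (alternatives from 0.00353 to 0.0733). ERBB2 sgRNA 5 was at 0.0625, 0.0676 and 0.0791 without N87 vehicle replicate 1, N87 vehicle replicate 2 and OE19 vehicle replicate 1 (from 0.00705 to 0.0791). ERBB2 sgRNA 6 was at 0.113, 0.0904 and 0.0612 without N87 vehicle replicate 1, OE19 lapatinib replicate 1 and OE19 vehicle replicate 2 (from 0.00784 to 0.113). The ERBB4 sgRNA 4 call was lost in 7 of 13 alternatives, 6 that leave out a library and control-guide scaling (-0.50, adjusted p 0.158), with alternatives from 0.0149 to 0.158. The calls on the 3 ERBB3 sgRNAs and EGFR sgRNA 6 held in all 13. Within ERBB3 the sgRNAs differed in opposite directions, and no receptor passed as a gene. All 8 chromosome 17 neighbours of ERBB2 also had positive median differences, with a list median of 1.51 against 0.15 over all genes.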

How the results depend on the processing

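With 2 libraries a group, calls on single genes can rest on 1 library. Depth was least in OE19 lapatinib, at 13105805 and 16378926 counts. The sources used here do not state whether libraries of the same number share an infection; their deviations correlated at 0.0323 to 0.238, and they were not treated as pairs. The replicate block changed no call on a receptor gene, ended the calls of EGFR sgRNA 6 in OE19 (adjusted p 0.0736) and ERBB2 sgRNA 3 in N87 (adjusted p 0.0567) under lapatinib against vehicle and of EGFR sgRNA 3 in N87 lapatinib against baseline (adjusted p 0.0834), and turned 2 uncalled medians, ERBB2 in N87 lapatinib against vehicle to 0.0066 and ERBB4 in N87 vehicle against baseline to -0.017. Under DESeq2 the uncalled median log2 fold change of ERBB2 in N87 lapatinib against vehicle turned to 9.88e-05, and 6 sgRNA calls ended: EGFR sgRNA 3, ERBB4 sgRNA 3, ERBB2 sgRNA 4 and ERBB3 sgRNA 4 in N87 lapatinib against baseline (adjusted p 0.0776, 0.0560, 0.0537 and 0.148) and ERBB2 sgRNAs 3 and 4 at baseline between lines (0.106 and 0.775).

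Scaling to control guides moved the median of all genes by -0.37 to 0.39 and turned uncalled medians: EGFR in N87 lapatinib against vehicle to -0.18, ERBB3 in OE19 lapatinib against vehicle to 0.013, ERBB4 in N87 vehicle against baseline to -0.049, EGFR in OE19 vehicle against baseline to -0.10, ERBB2 in OE19 lapatinib against baseline to -0.049 and the line difference of EGFR under lapatinib against vehicle to 0.24. Library totals, which moved that median by -0.54 to 0.05, gave EGFR -0.43 in N87 and -0.24 in OE19 lapatinib against vehicle, and -0.20 for EGFR and -0.45 for ERBB2 in OE19 lapatinib against baseline. Counts summed per gene called 2 receptors in N87 lapatinib against vehicle (ERBB3 0.28, ERBB4 -0.48), 2 in N87 lapatinib against baseline (ERBB2 -0.81, ERBB4 -0.46) and 2 in the line difference under lapatinib against vehicle (ERBB2 1.33, EGFR 1.84, which turned), where 64.5%, 70.7% and 44.7% of genes were called. The EGFR sum was dominated by sgRNA 6 in OE19 lapatinib. Summed counts also turned ERBB3 in the line difference of vehicle against baseline to -0.015 and ERBB4 at baseline between lines to -0.019.

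Over all comparisons, leaving out N87 baseline replicate 1 or 2 ended 11 or 12 receptor sgRNA calls, N87 vehicle replicate 1 or 2 ended 7 or 8, and each other library 1 to 4; control-guide scaling ended 10 and library totals 12. Leaving out 1 library at a time, the number of receptors called ran from 0 to 1 in vehicle against baseline of N87, 0 to 1 in that of OE19, and 1 to 2 at baseline between lines. The medians ran from -0.32 to 0.68 for ERBB2 and N87 lapatinib against vehicle, -0.44 to 0.13 for ERBB3 and OE19 lapatinib against vehicle, -1.09 to -0.31 for ERBB2, -0.63 to -0.18 for ERBB3 and -0.022 to 0.11 for ERBB4 in N87 vehicle against baseline, -1.25 to -0.73 for ERBB2 in OE19 vehicle against baseline, and -0.054 to 0.15 for ERBB2 in OE19 lapatinib against baseline. For the line differences they ran from -0.24 to 0.24 for EGFR under lapatinib against vehicle and -0.81 to -0.16 for ERBB2 and -0.044 to 0.42 for ERBB3 under vehicle against baseline, and at baseline from 0.22 to 0.43 for ERBB3 and -0.090 to 0.017 for ERBB4.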
